A study of Mus musculus with 12 samples.

Results

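Toll-like receptors are the sensors by which innate immune cells recognise molecules of bacteria and viruses, and Cd14 is the protein that captures lipopolysaccharide and hands it to Tlr4. The genes described here are 9 Toll-like receptors (Tlr1, Tlr2, Tlr4, Tlr5, Tlr6, Tlr7, Tlr8, Tlr9 and Tlr13) and Cd14. They were chosen by name, not by their values, and are 10 of the 34745 genes measured. Whole femoral marrow of 12 male mice of the outbred ICR stock was sequenced as RNA, in 4 groups of 3 mice. Mice of the normal group were given saline alone. Those of the model group were given oral saline for 1 week, with cyclophosphamide, which alkylates DNA and depletes dividing cells, at 80 mg/kg daily on days 5 to 7. In the QJSB group Qi-Jing-Sheng-Bai granule (3 g/kg daily) was added to that course of cyclophosphamide, and in the leucogen group leucogen (20 mg/kg daily), which is prescribed against low leucocyte counts. Both drug groups thus carry the cyclophosphamide of the model group, and no group received a drug without it. The comparison of model with normal asks what cyclophosphamide changed, and those of QJSB and leucogen with model ask what each treatment changed on top of it. In the count table the groups go by the column names Blank, Model, Positive and Stilbene. Blank was taken as normal, Positive as leucogen and Stilbene as QJSB, by what the words mean and by elimination, so the statements on the normal, leucogen and QJSB groups rest on that reading.

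As background, Toll-like receptors divide by where they meet their ligands. Tlr1, Tlr2, Tlr4, Tlr5 and Tlr6 sit at the cell surface and bind lipoproteins, lipopolysaccharide or flagellin, while Tlr7, Tlr8, Tlr9 and Tlr13 sit in endosomes and bind nucleic acids after the chaperone Unc93b1 has brought them there. All of the 9 signal through the adaptor Myd88 to NF-kB and interferon regulatory factors. In marrow they are found on neutrophils, monocytes, macrophages, dendritic cells and B cells, and they are also known on early haematopoietic progenitors.

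Levels are given as CPM, counts scaled to the library's size after TMM normalization, except where levels of different genes are compared. For those the deposited FPKM was used, which by the authors' formula divides by transcript length. The lengths they used are not given in the sources used here. Orders, sums, shares and ratios across genes rest on those lengths. Library totals ran from 11172547 to 18545198 counts. A gene was called changed when its edgeR quasi-likelihood p, adjusted by Benjamini-Hochberg over all genes tested, was under 0.05 and the fold exceeded 1.5. All 10 genes passed the filter on low counts in each of the 6 comparisons. The labels name no batch. The marrow could be recognised in every group, since each of the 15 markers of late neutrophils and each of the 8 markers of promyelocytes had counts in all 4 groups. QJSB 1 stood apart from the other QJSB libraries in late neutrophil markers, at a summed 5492 CPM beside 23705 and 17126 CPM.

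Over the 6 comparisons, 13 of 60 tests of these genes were called, and 12 of the 13 had groups whose libraries did not overlap. The share without overlap among all called genes was not worked out, so nothing is read from it. Tlr9 was called in 5 comparisons, Tlr5 in 4, and Tlr13 and Cd14 in 2 each. The other 6 genes, Tlr1, Tlr2, Tlr4, Tlr6, Tlr7 and Tlr8, were called in none. The calls therefore fall on the flagellin receptor, the receptor of CpG DNA, the receptor of bacterial ribosomal RNA and the co-receptor of lipopolysaccharide.

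These counts stand against a wide background of change. In model against normal, 2 of the 10 genes were called, beside 35.1% of the 14752 genes tested. Both were lower, as were 19.0% of all genes, and 0 were higher, beside 16.1%. In leucogen against model, 2 were called beside 23.1% of all genes, with 1 higher (11.6% of all genes) and 1 lower (11.5%). In QJSB against normal, 4 were called beside 37.9% of all genes, with 1 higher (18.0%) and 3 lower (19.9%). In leucogen against normal, 2 were called beside 37.7% of all genes, with 1 higher (17.8%) and 1 lower (19.8%). In QJSB against leucogen, 3 were called beside 24.6% of all genes, with 1 higher (12.9%) and 2 lower (11.7%). With total counts in place of TMM, higher genes made up 56.3% of all calls in model against normal, beside 45.8%, and 30.2% in leucogen against model, beside 50.1%. The shares of the 10 genes called are near or below these, and nothing is read from them about the family. Without QJSB 1, 5 of the 10 were called in QJSB against leucogen, where Tlr9 lost its call and Tlr4, Tlr6 and Cd14 gained one. The share of all genes called in that setting is not given here, so nothing is read from the 5 about the family. In QJSB against model, leaving out QJSB 1 raised the genes past the cutoff on unadjusted p and fold from 446 to 1716.

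In QJSB against model, edgeR called 0 of the 10 genes and 0% of the 14486 genes tested at the adjusted cutoff. DESeq2 called 0 of the 10 and 8 genes in all, edgeR with the replicate number as a block 0 of the 10 and 18 in all, and edgeR without QJSB 1 likewise 0 of the 10 and 3 in all. At the unadjusted cutoff 1 of 10 was called, Cd14, beside 3.08% of all genes, and 723 genes had an unadjusted p under 0.05 whatever their fold. The median log2 fold change of the 10 genes was -0.23 in QJSB against model, beside -0.02 over all genes tested. In the other comparisons it ran from -0.15 to 0.13. The comparisons with model share the model libraries, and those with normal share the normal libraries.

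The promoter sequences of Tlr5 and Tlr9 are shown because these are the genes called most often, and because Tlr5 and Tlr9 moved in opposite directions under leucogen. Each is the 250 bases before the RefSeq transcription start, 5′ to 3′ on the coding strand, in the build GRCm38.p6. The Tlr5 window is chr1:182954538-182954787 on the plus strand and the Tlr9 window is chr9:106222348-106222597 on the plus strand. Capitals mark matches, on either strand, to the letters GAGGAA (the core of a PU.1 site), TGANTCA (an AP-1 site) or GGGCGG (a GC box, as Sp1 binds), and no match overlapped another.
Tlr5: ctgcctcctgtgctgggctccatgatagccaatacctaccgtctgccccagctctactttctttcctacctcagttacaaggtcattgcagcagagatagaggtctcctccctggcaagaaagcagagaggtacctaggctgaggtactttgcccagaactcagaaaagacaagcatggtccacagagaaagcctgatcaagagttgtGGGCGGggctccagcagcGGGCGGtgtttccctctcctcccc
Tlr9: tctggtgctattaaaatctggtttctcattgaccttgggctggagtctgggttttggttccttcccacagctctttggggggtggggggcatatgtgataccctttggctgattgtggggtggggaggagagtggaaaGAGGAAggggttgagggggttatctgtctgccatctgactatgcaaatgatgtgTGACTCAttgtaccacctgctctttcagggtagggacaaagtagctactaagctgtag

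The Tlr5 window held 2 matches to the GC box, starting 42 and 24 bases before the transcription start, and none to the other letters. The Tlr9 window held 1 PU.1 match 112 bases before the start and 1 AP-1 match 58 bases before it. PU.1 is a factor of myeloid and B cells, AP-1 acts downstream of these receptors, and Sp1 is found in most cells. Of 32536 different promoter windows of this length, 23.4% held GAGGAA, 6.73% held TGANTCA and 33.0% held GGGCGG, so such matches are a description of letters only. The Tlr5 window held 4 CpG dinucleotides and the Tlr9 window 0, beside a median of 6 over all windows.

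In the coordinates of the count table, on the build mm10, Tlr5 spans chr1:182954788-182976044 and Tlr9 spans chr9:106222598-106226883, both on the plus strand. Tlr13 lies on the plus strand of chromosome X at 106143204 to 106160493. Tlr1 (chromosome 5, 64924679 to 64933563) and Tlr6 (chromosome 5, 64952031 to 64960097) are neighbours on the minus strand, 18467 bases apart. Tlr8 (chromosome X, 167242696 to 167264329) and Tlr7 (chromosome X, 167304929 to 167330558) are likewise neighbours on the minus strand, 40599 bases apart. Tlr2 lies on the minus strand of chromosome 3 at 83836272 to 83841767, and Tlr4 on the plus strand of chromosome 4 at 66827584 to 66930284. None of the 10 genes overlaps another gene in the GENCODE M21 annotation. Tlr1 and Tlr6 are close copies: of the different 50-base words in the longest coding transcript of Tlr1, 15.3% also occur in Tlr6 transcripts, and 12.6% of those of Tlr6 occur in another gene, nearly all in Tlr1. Counts of this pair are uncertain to that extent, while the longest coding transcripts of the other 8 genes shared 0% of their words with other genes.

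**Figure D1:**
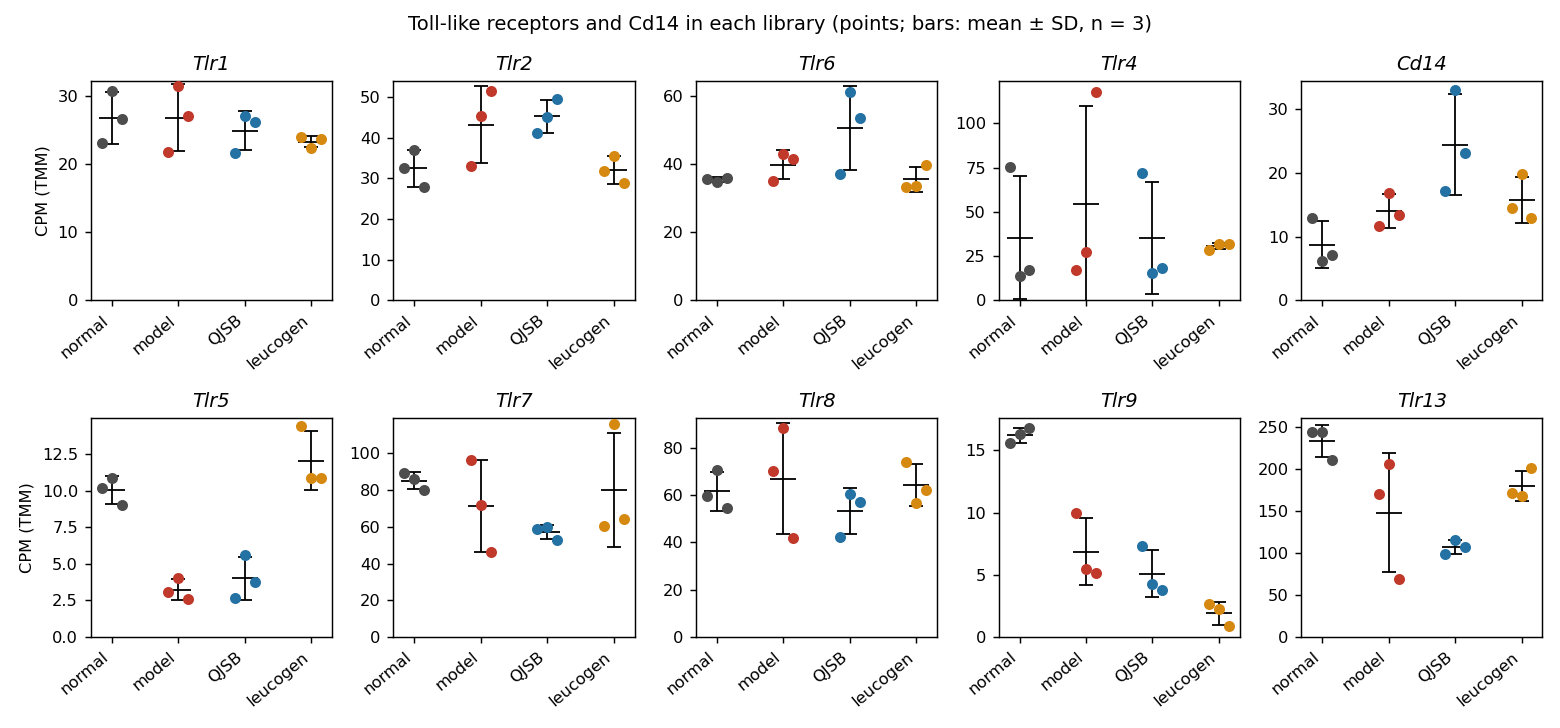
Level of each of the 10 genes in each library, in CPM after TMM scaling on a linear axis from 0; points are libraries 1 to 3 of a group, from left to right, and bars the mean ± SD (n = 3), with the lower bar of Tlr4 in model cut at 0. Tlr5 is low in all 3 model libraries (2.6 to 4.04 CPM) and high in all 3 leucogen libraries (10.9 to 14.4 CPM), Tlr9 is below 3 CPM in leucogen, and Tlr4 has 1 high library in each of normal, model and QJSB.

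The lipoprotein receptors Tlr2, Tlr1 and Tlr6 come first among the surface receptors. Tlr2 pairs with Tlr1 to bind triacylated lipoproteins and with Tlr6 to bind diacylated ones. Tlr2 was at 32.4, 37 and 27.8 CPM in the 3 normal libraries and at 32.9, 45.2 and 51.5 CPM in the 3 model libraries. The ranges of these groups overlapped, and the log2 fold change of Tlr2 in model against normal was 0.42 ± 0.19 (SE; edgeR adjusted p = 0.116). In QJSB it was at 41.1, 45.1 and 49.4 CPM, above each normal library (32.4 ± 4.56 CPM, SD, n = 3, in normal) and each leucogen library (31.8, 35.5 and 28.8 CPM). The log2 fold change of Tlr2 in QJSB was 0.49 ± 0.15 (SE) against normal (edgeR adjusted p = 0.0271) and 0.48 ± 0.14 against leucogen (edgeR adjusted p = 0.0382). Both passed the adjusted p but not the 1.5-fold limit, and so were not called. Against model, Tlr2 in leucogen had a log2 fold change of -0.43 ± 0.19 (SE; edgeR adjusted p = 0.117), and with total counts in place of TMM it was called (-0.59, adjusted p = 0.0321). Tlr2 was also called in model against normal without model 1 (0.59, edgeR adjusted p = 0.0252) and in QJSB against normal without normal 2 (0.60, edgeR adjusted p = 0.034).

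Tlr6 was the steadiest gene in normal marrow, at 35.6, 34.7 and 36 CPM. In model it was at 34.9, 43 and 41.5 CPM, in QJSB at 37.1, 61 and 53.5 CPM, and in leucogen at 33.1, 33.6 and 39.7 CPM. Each QJSB library lay above each normal library, with a log2 fold change of 0.52 ± 0.18 (SE; edgeR adjusted p = 0.0487), under the 1.5-fold limit. QJSB 1 was close to normal, and without it the log2 fold change of Tlr6 was 0.70 against normal (adjusted p = 8.2e-04) and 0.67 against leucogen (adjusted p = 0.0059), beside 0.49 with all QJSB libraries (adjusted p = 0.0927). Tlr1, by contrast, stayed between 21.6 and 31.5 CPM in all 12 libraries, and its log2 fold changes in the 6 comparisons ran from -0.19 to 0.08. The ratio of Tlr6 to Tlr1 in FPKM was 2.01 ± 0.316 in normal, 2.24 ± 0.182 in model, 3 ± 0.407 in QJSB and 2.28 ± 0.224 in leucogen (SD, n = 3 each). The 3 QJSB ratios, 2.57, 3.37 and 3.06, lay above all 9 others, each comparison of QJSB with another group giving an exact two-sided permutation p = 0.1, the smallest that 3 against 3 can give. The ratio of Tlr2 to Tlr6 lay between 0.991 and 1.7 in all 12 libraries.

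Tlr4, the receptor of lipopolysaccharide, was set apart by single libraries. It was at 75.6, 13.5 and 17.2 CPM in normal, at 17.1, 27.4 and 118 CPM in model, at 71.9, 15.2 and 18.3 CPM in QJSB, and at 28.4, 31.9 and 31.6 CPM in leucogen. In counts, the 3 high libraries held 1044 (normal 1), 2054 (model 3) and 1339 (QJSB 1), and the other 9 held 197 to 440. The highest library was 5.6 times the lowest in normal, 6.94 times in model and 4.74 times in QJSB, but 1.12 times in leucogen. No comparison of Tlr4 was called, and its standard errors, such as 0.98 on a log2 fold change of 0.62 in model against normal, exceeded those of the other 9 genes. The high libraries decide its direction. Without normal 1 the log2 fold change in leucogen against normal went from -0.19 to 1.01 (edgeR adjusted p = 8.8e-04), and without QJSB 1 that in QJSB against leucogen went from 0.17 to -0.90 (edgeR adjusted p = 0.00329). Without model 3, the log2 fold change in model against normal was -0.67, and those against model turned from -0.64 to 0.65 in QJSB and from -0.82 to 0.49 in leucogen.

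The partner of Tlr4 varied less. Ly96, the subunit that binds lipopolysaccharide with Tlr4, was at 7.17, 4.59 and 5.37 CPM in normal, at 4.33, 7.8 and 3.75 CPM in model, and at 5.8, 3.24 and 3.9 CPM in QJSB. Normal 1 and QJSB 1 were the highest of their groups in Ly96 and model 3 the lowest. The summed level of 12 monocyte markers was 1790, 1901 and 1804 CPM in normal and 7184, 4080 and 3771 CPM in model, so that the high Tlr4 libraries normal 1 and model 3 were the lowest of their groups, while QJSB 1, at 4869 CPM, was the highest of its group. The part of cell types in the Tlr4 levels was not tested.

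Cd14 rose in QJSB and in leucogen against normal. Its mean level was 8.67 ± 3.68 CPM in normal, 14 ± 2.65 in model, 24.4 ± 7.96 in QJSB and 15.7 ± 3.64 in leucogen (SD, n = 3 each). Its libraries were at 12.9, 6.1 and 7.03 CPM in normal, at 11.7, 16.9 and 13.4 CPM in model, at 17.2, 33 and 23.1 CPM in QJSB, and at 14.4, 19.8 and 12.9 CPM in leucogen. Normal 1 reached into the range of model, while each QJSB library lay above each model and each normal library. The log2 fold change of Cd14 was 1.51 ± 0.34 in QJSB against normal (SE; edgeR adjusted p = 0.0096), a 2.84-fold higher level, and 0.88 ± 0.30 in leucogen against normal (edgeR adjusted p = 0.0365), both called. In model against normal it was 0.69 ± 0.30 and not called (edgeR adjusted p = 0.0978), though it was called without normal 1 (1.10, edgeR adjusted p = 0.0166) and by limma-trend on log2(FPKM + 0.1) (0.86, adjusted p = 0.0439).

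In QJSB against model, the log2 fold change of Cd14 was 0.79 ± 0.27 (SE) with an unadjusted p of 0.0182 and an edgeR adjusted p of 0.767. It was thus past the cutoff of the study's methods, an unadjusted P under 0.05 with a fold over 1.5, but not past the adjusted one. It no longer passed the unadjusted cutoff without QJSB 2, the library highest in Cd14 (0.52), without model 1 (0.67) or without model 3 (0.76). Without model 3, Tlr8 (-0.59) and Tlr13 (-0.83) passed it in its place. In QJSB against leucogen it was 0.62 ± 0.27 (edgeR adjusted p = 0.113). That comparison was called with the replicate number as a block (log2 fold change 0.59, edgeR adjusted p = 0.0483) and without QJSB 1 (0.81, edgeR adjusted p = 0.0199). The call of Cd14 in leucogen against normal was lost without normal 2, normal 3, leucogen 1 or leucogen 2, at adjusted p from 0.0735 to 0.122, and with no filter on low counts (adjusted p = 0.0585).

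Monocyte markers, beside which Cd14 is usually read, summed to 1790 to 1901 CPM in normal, 3771 to 7184 CPM in model, 3994 to 4869 CPM in QJSB and 2488 to 3215 CPM in leucogen. Of the 12 markers, 8 rose and 0 fell in model against normal, beside 16.1% and 19.0% of all genes, and 0 were at 0 throughout any group. Model 1 had the highest monocyte sum and the lowest Cd14 of its group, while QJSB 2 had the lowest sum and the highest Cd14 of its group. Late neutrophil markers ran otherwise: normal 1 (17897 CPM), model 2 (11005), QJSB 2 (23705) and leucogen 2 (32712) were the highest of their groups in them and in Cd14. Between groups, the mean neutrophil sum was highest in leucogen and mean Cd14 in QJSB. The part of these cell types in the level of Cd14 was not tested. In bulk marrow, fewer cells of a type and less RNA per cell cannot be told apart, and this holds for each gene below as well.

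**Figure D2:**
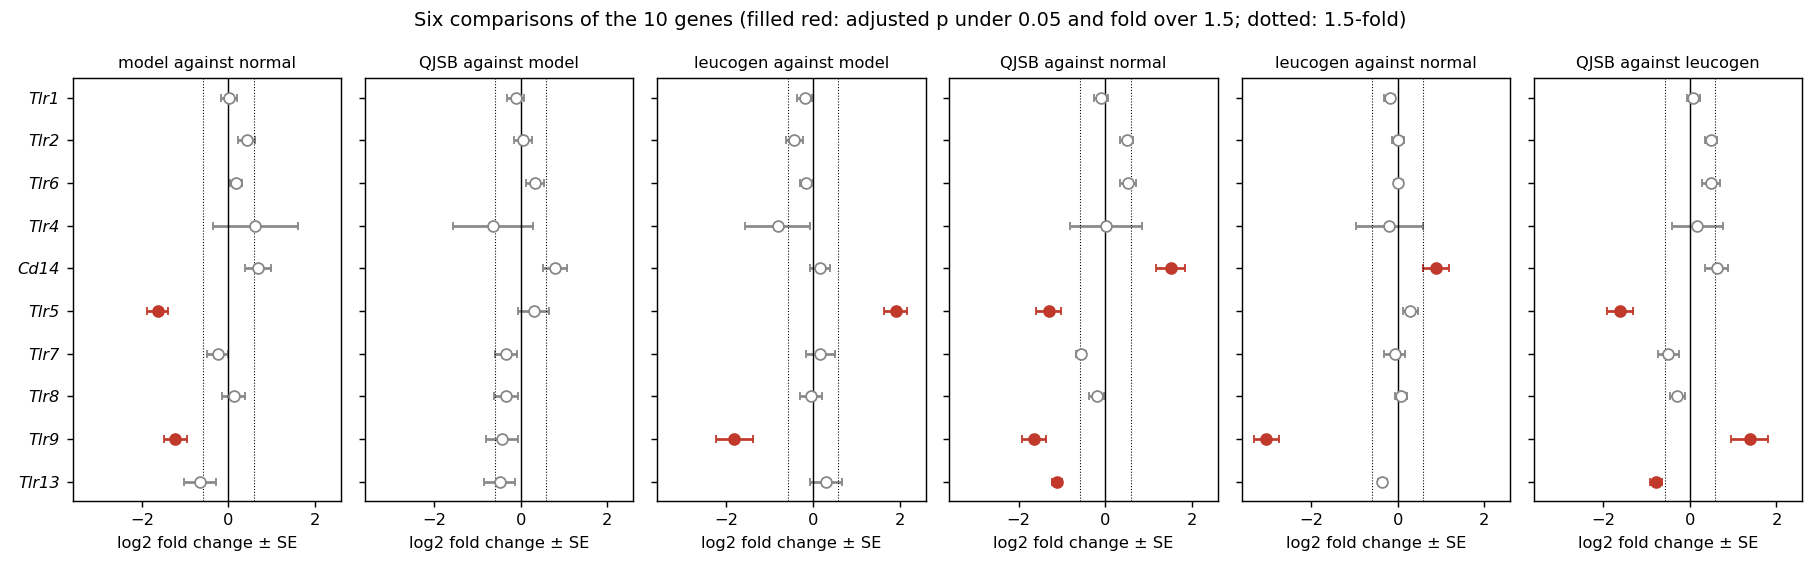
Log2 fold change ± SE of each of the 10 genes in the 6 comparisons, from edgeR fits of 3 against 3 libraries; red filled points passed an adjusted p of 0.05 and a fold of 1.5, open points did not, and dotted lines mark 1.5-fold. Tlr5 and Tlr9 lie on the same side in model against normal (-1.63 and -1.23) and on opposite sides in leucogen against model (1.91 and -1.82), and QJSB against model has 0 filled points.

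Tlr5, the receptor of bacterial flagellin, had the lowest FPKM of the 10 genes in normal, model and QJSB, and it fell with cyclophosphamide and rose with leucogen. It was at 10.2, 10.9 and 9.03 CPM in normal and at 3.06, 4.04 and 2.6 CPM in model. The groups were apart, with a log2 fold change of -1.63 ± 0.24 (SE; edgeR adjusted p = 9.1e-04), a 3.11-fold lower level. In leucogen it was at 14.4, 10.9 and 10.9 CPM, each above every model library, with a log2 fold change of 1.91 ± 0.26 against model (edgeR adjusted p = 0.00255) and of 0.29 ± 0.17 against normal (edgeR adjusted p = 0.189). In QJSB it was at 2.68, 5.61 and 3.77 CPM, so that QJSB 1 and QJSB 3 lay within the range of model and QJSB 2 above it. The log2 fold change of Tlr5 in QJSB was 0.30 ± 0.36 against model (edgeR adjusted p = 0.853), -1.31 ± 0.28 against normal (edgeR adjusted p = 0.00773) and -1.61 ± 0.30 against leucogen (edgeR adjusted p = 0.0065). The difference between the treated groups in Tlr5 was therefore tested directly and called, at a 3.04-fold higher level in leucogen.

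Late neutrophil markers moved alongside Tlr5 in model against normal and in leucogen against model. The 15 markers summed to 15839 to 17897 CPM in normal, 5750 to 11005 CPM in model, 5492 to 23705 CPM in QJSB and 26892 to 32712 CPM in leucogen. Of the 15, 7 fell and 0 rose in model against normal, beside 19.0% and 16.1% of all genes. In leucogen against model 8 rose and 0 fell, beside 11.6% and 11.5%. In QJSB the summed marker level and Tlr5 parted. QJSB 2 and QJSB 3 had neutrophil sums of 23705 and 17126 CPM, above or within the range of normal. Their Tlr5, at 5.61 and 3.77 CPM, lay below every normal library. Marker by marker the parting was less plain. In QJSB against normal the 15 markers had a median log2 fold change of -0.34, with 6 of 15 above 0. Of them 2 were called higher and 0 lower, beside 18.0% and 19.9% of all genes. The levels also parted in leucogen against normal, where 9 of the 15 markers were called higher, beside 17.8% of all genes. There Tlr5 was not called (log2 fold change 0.29, edgeR adjusted p = 0.189). The part of neutrophils in the level of Tlr5 was not tested.

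**Figure D3:**
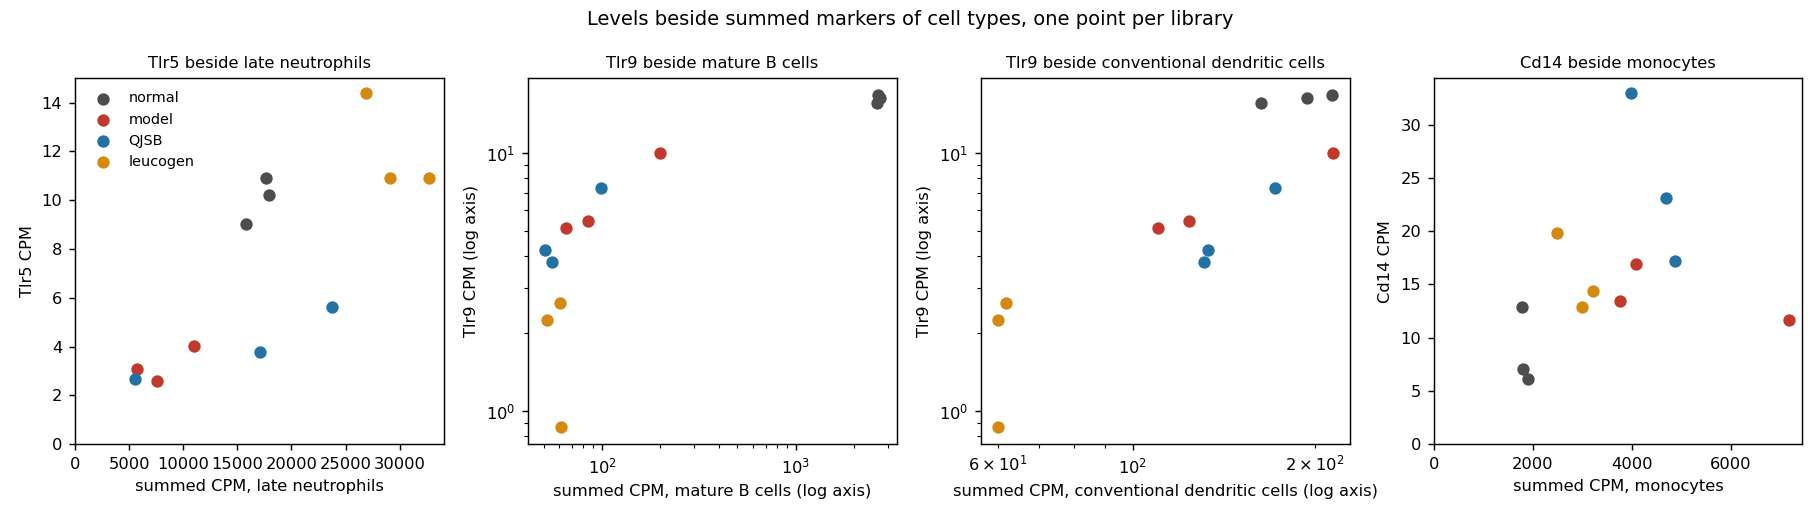
Tlr5 beside summed late neutrophil markers and Cd14 beside summed monocyte markers (CPM, linear axes from 0), and Tlr9 beside summed markers of mature B cells and of conventional dendritic cells (CPM, log axes), with 1 point per library coloured by group. Leucogen is highest in Tlr5 and in neutrophil markers, and lowest in Tlr9 and in conventional dendritic cell markers (59.9 to 61.8 CPM).

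Tlr9, the endosomal receptor of unmethylated CpG DNA, fell in every group that received cyclophosphamide and fell furthest with leucogen. It was at 15.6, 16.3 and 16.8 CPM in normal, at 9.98, 5.46 and 5.13 CPM in model, at 7.3, 4.22 and 3.77 CPM in QJSB and at 2.62, 2.25 and 0.864 CPM in leucogen. Each leucogen library lay below every other library, and each normal library above every other one. The leucogen values rest on 33, 31 and 9 counts. The log2 fold change of Tlr9 was -1.23 ± 0.27 in model against normal (SE; edgeR adjusted p = 0.00656), -1.65 ± 0.27 in QJSB against normal (edgeR adjusted p = 0.0021) and -3.03 ± 0.29 in leucogen against normal (edgeR adjusted p = 2.1e-05), the last an 8.16-fold lower level.

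Against model, Tlr9 in leucogen had a log2 fold change of -1.82 ± 0.43 (SE; edgeR adjusted p = 0.0156), and without leucogen 3, the library with 9 counts, it was -1.49 and missed the limit (adjusted p = 0.0551). In QJSB against model it was -0.44 ± 0.37 (edgeR adjusted p = 0.801). QJSB against leucogen was called at 1.38 ± 0.43 (edgeR adjusted p = 0.0442), but that call was lost on leaving out any of the 6 libraries, at adjusted p from 0.0571 to 0.128, and with limma-trend on FPKM. As FPKM the ratio of Tlr5 to Tlr9 was 0.203 ± 0.0239 in normal, 0.169 ± 0.0708 in model and 0.293 ± 0.159 in QJSB, but 2.5 ± 1.42 in leucogen (SD, n = 3 each). Its leucogen values, 1.79, 1.58 and 4.13, lay above all 9 others (exact two-sided permutation p = 0.1 against each group, the smallest possible).

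Mature B cells and dendritic cells are known for Tlr9. The 13 mature B cell markers summed to 2624 to 2722 CPM in normal, 65.2 to 199 CPM in model, 50.6 to 99.3 CPM in QJSB and 52.1 to 61.1 CPM in leucogen. In each group against normal 13 of 13 fell, where 19.0%, 19.9% and 19.8% of all genes were lower in model, QJSB and leucogen. Only 7, 7 and 6 of the 13 passed the low-count filter in QJSB against model, leucogen against model and QJSB against leucogen. Markers that passed only through normal, where they are high, could not be called higher, so the 13 of 13 is partly set by the filter. Fcer2a was at 0 in every QJSB library and Cr2 in every leucogen library. The 9 conventional dendritic cell markers summed to 163 to 213 CPM in normal, 110 to 214 in model, 131 to 172 in QJSB and 59.9 to 61.8 in leucogen. Of the 7 of them tested, 5 fell and 1 rose in model against normal, beside 19.0% and 16.1% of all genes. In leucogen against model 3 fell and 1 rose, beside 11.5% and 11.6%. The 9 plasmacytoid dendritic cell markers summed to 247 to 300 CPM in normal, 160 to 280 in model, 140 to 201 in QJSB and 154 to 202 in leucogen. Of them, 0 rose and 4 of 9 fell in model against normal, 6 of 9 in QJSB against normal, 7 of 9 in leucogen against normal and 2 of 8 tested in leucogen against model. Of all genes, 19.0%, 19.9%, 19.8% and 11.5% were lower in these comparisons, and 16.1%, 18.0%, 17.8% and 11.6% higher. Here too fewer markers passed the filter without normal, 8 of the 9 in QJSB against model and 6 in QJSB against leucogen. Model 1 and QJSB 1, the libraries highest in Tlr9 within their groups, were also the highest of their groups in the B cell and in both dendritic cell sums. The part of these cell types in the level of Tlr9 was not tested.

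Tlr13, which recognises bacterial ribosomal RNA, had the highest FPKM of the 10 genes in every group. As CPM it was at 244, 244 and 211 in normal, at 170, 206 and 68.6 in model, at 98.6, 115 and 107 in QJSB and at 171, 168 and 201 in leucogen. Model 3 was lower than any QJSB library, so QJSB and model overlapped, whereas QJSB was apart from normal and from leucogen. The log2 fold change of Tlr13 in QJSB was -1.11 ± 0.12 against normal (SE; edgeR adjusted p = 2.7e-04) and -0.78 ± 0.14 against leucogen (edgeR adjusted p = 0.00561), both called, and -0.49 ± 0.35 against model (edgeR adjusted p = 0.777). With all 12 libraries in one fit the difference from leucogen was not called (adjusted p = 0.067). In model against normal the log2 fold change was -0.65 ± 0.37 (edgeR adjusted p = 0.202) although no libraries overlapped. Leucogen was apart from normal at -0.35 ± 0.10 (edgeR adjusted p = 0.0151), under the 1.5-fold limit.

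Tlr7 and Tlr8, neighbouring genes whose proteins bind single-stranded RNA, were not called in any comparison. Tlr7 was at 89.3, 86.3 and 80.1 CPM in normal, at 96.3, 71.9 and 46.3 CPM in model, at 58.8, 60 and 53 CPM in QJSB and at 60.3, 116 and 64.4 CPM in leucogen. QJSB lay below normal in each library, with a log2 fold change of -0.56 ± 0.11 (SE; edgeR adjusted p = 0.00484) that fell just short of 1.5-fold, and below leucogen at -0.50 ± 0.24 (edgeR adjusted p = 0.143). The difference from normal was called without normal 3 (-0.61, edgeR adjusted p = 0.0147), without QJSB 2 (-0.59, edgeR adjusted p = 0.0108) and with at least 10 counts in every library (-0.59, edgeR adjusted p = 0.00368). Tlr8 lay between 41.9 and 88.5 CPM over the 12 libraries, and its log2 fold changes ran from -0.34 to 0.12. Model 3 was the lowest of its group in Tlr7, Tlr8, Tlr9 and Tlr13. It was the highest of its group in Tlr2 and Tlr4.

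The 13 macrophage markers summed to 491 to 550 CPM in normal, 251 to 374 CPM in model, 302 to 373 CPM in QJSB and 251 to 275 CPM in leucogen. Of the 12 tested, 8 fell and 1 rose in each of the 3 groups against normal. Of all genes, 19.0% to 19.9% were lower there and 16.1% to 18.0% higher. Model 3 was the lowest of its group in the macrophage sum. The part of macrophages in the levels of the endosomal receptors was not tested.

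**Figure D4:**
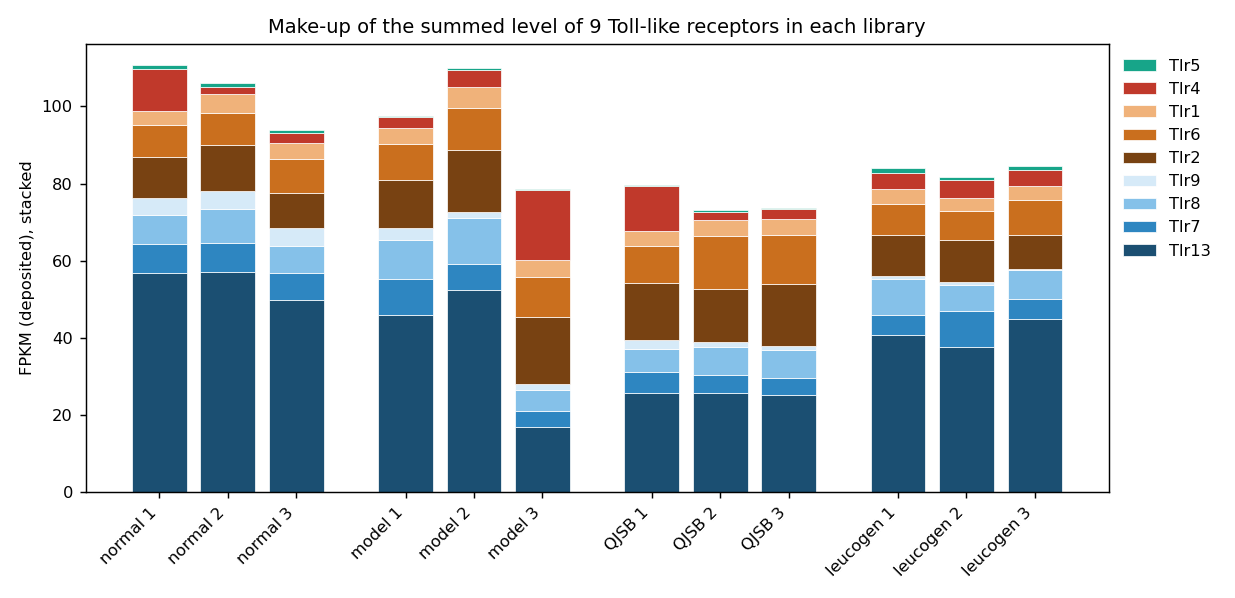
Deposited FPKM of the 9 Toll-like receptors stacked for each library on a linear axis from 0, endosomal receptors in blue at the base and surface receptors above. The endosomal receptors make up 68.5 to 78 FPKM in the normal libraries and 37.8 to 39.4 FPKM in the QJSB libraries, and model 3 has the lowest endosomal total (27.9 FPKM).

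Set side by side as deposited FPKM, the 9 receptors summed to 104 ± 8.67 FPKM in normal, 95.3 ± 15.8 in model, 75.5 ± 3.55 in QJSB and 83.4 ± 1.46 in leucogen (SD, n = 3 each). Tlr13 led the order in each group, at 54.6 ± 4.14 FPKM in normal, 38.3 ± 18.9 in model, 25.4 ± 0.312 in QJSB and 41.1 ± 3.64 in leucogen. Its range was apart from that of the next gene in normal, QJSB and leucogen, but not in model. Tlr2 was next at 10.5 ± 1.44 FPKM in normal, 15.3 ± 2.67 in model and 10.1 ± 1.1 in leucogen. In QJSB Cd14 took that place at 15.3 ± 3.9 FPKM, its range overlapping that of Tlr2 (14.9 ± 1.08 FPKM), whereas in normal it was sixth in order at 5.41 ± 2.26 FPKM. The order below Tlr13 depends on the lengths used. In normal, Tlr7 was at 85.2 CPM and Tlr8 at 61.7 CPM, beside 32.4 CPM for Tlr2. The longest coding transcripts of these genes have 3897, 3431 and 3014 bases. Divided by those lengths, Tlr7 and Tlr8 would lie above Tlr2.

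In normal the range of Tlr8 (6.92 to 8.87 FPKM) overlapped those of Tlr6 (8.25 to 8.64 FPKM) and Tlr7 (6.89 to 7.56 FPKM), which were apart from each other. Cd14 (3.81 to 7.99 FPKM) and Tlr4 (1.96 to 10.9 FPKM) reached into the ranges of their neighbours on either side, and Tlr9 (4.36 to 4.79 FPKM) overlapped Tlr1 (3.63 to 4.89 FPKM). Tlr5 closed the order at 0.924 ± 0.0825 FPKM in normal, 0.325 ± 0.0766 in model and 0.37 ± 0.11 in QJSB. In leucogen Tlr5 (1.08 ± 0.224 FPKM) lay above Tlr9 (0.529 ± 0.268 FPKM), their ranges apart. The endosomal receptors made up 71.8% ± 2.48 of the summed FPKM in normal, 57.4% ± 18.9 in model, 51.2% ± 1.77 in QJSB and 67.2% ± 0.964 in leucogen. The 3 QJSB shares (49.5%, 53% and 51.2%) lay below each normal and each leucogen library, with an exact two-sided permutation p = 0.1 in either case, and model 3 (35.6%) was lower still. The surface receptors summed to 29.3 ± 4.59, 38.9 ± 10.9, 36.9 ± 3.01 and 27.4 ± 0.564 FPKM in normal, model, QJSB and leucogen. These sums and shares, and the sizes of the ratios between genes given above, hold only for the lengths that the authors divided by. With other lengths they would differ.

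The rest of the pathway was read from lists of 94 genes in 10 roles, of which 92 were matched by symbol to a single row of the table. Of 81 tested in model against normal, 12 were higher (14.8%, beside 16.1% of all genes) and 19 lower (23.5%, beside 19.0%), with a median log2 fold change of -0.01 beside 0.02 over all genes. In leucogen against model 10 of 80 were higher and 10 lower (12.5% each, beside 11.6% and 11.5%), and in QJSB against model 0 of 80 were called, where 0 genes of the whole table were. In QJSB against normal 14 of 81 were higher (17.3%, beside 18.0%) and 17 lower (21%, beside 19.9%). In leucogen against normal 17 of 81 were higher (21%, beside 17.8%) and 18 lower (22.2%, beside 19.8%). In QJSB against leucogen 14 of 78 were higher (17.9%, beside 12.9%) and 7 lower (8.97%, beside 11.7%). The remaining receptors of the family, Tlr3, Tlr11 and Tlr12, together reached 1.7 to 7.44 CPM, and of them Tlr11 alone was called, lower in QJSB and in leucogen against normal.

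**Figure D5:**
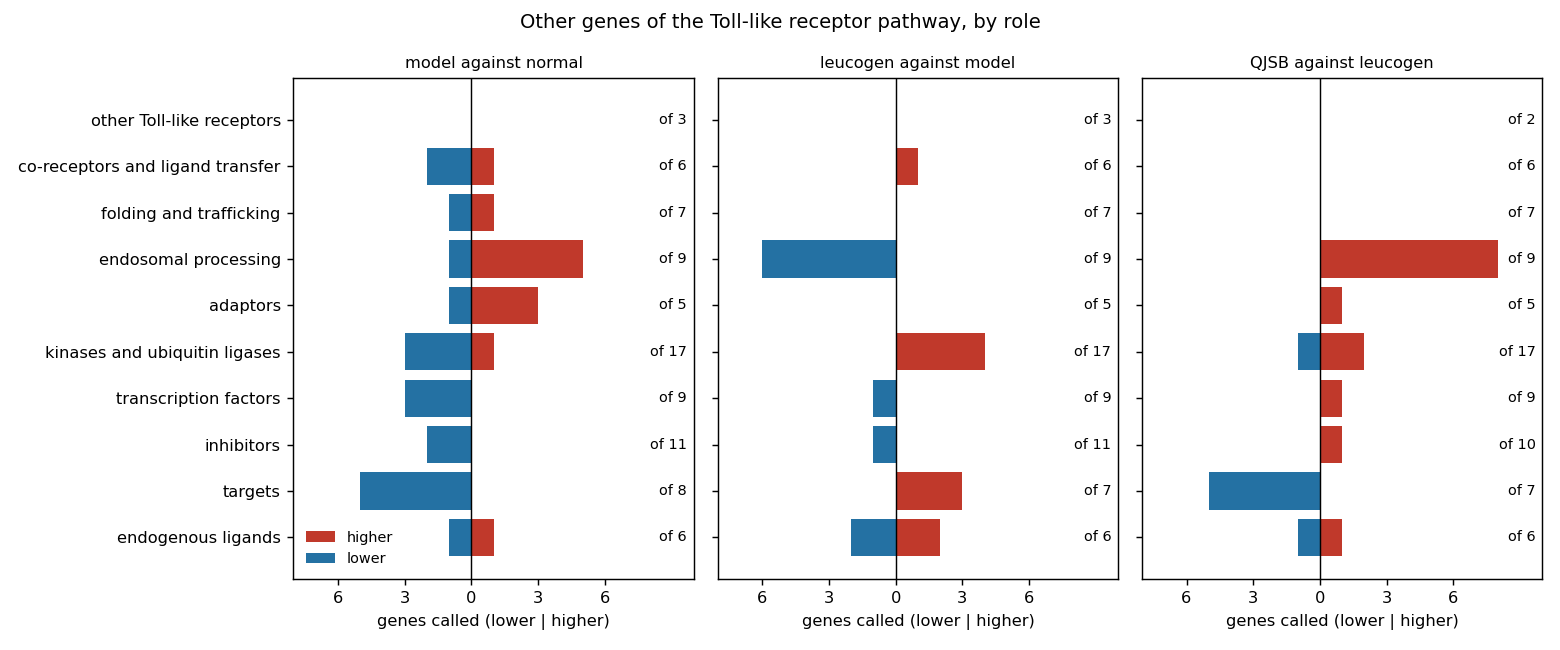
Number of genes called higher (red, to the right) and lower (blue, to the left) in each of 10 role lists of the Toll-like receptor pathway, for 3 comparisons, with the number tested at the right. Endosomal processing genes are called higher 5 times in model against normal, lower 6 times in leucogen against model and higher 8 times in QJSB against leucogen, out of 9. The shares of all genes called in these directions are 16.1%, 11.5% and 12.9%.

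Among the proteins that bring ligands to the receptors, Cd36, a scavenger receptor that assists Tlr2, was lower in model at 13.6 CPM beside 267 CPM in normal (log2 fold change -4.29 ± 0.41, SE; edgeR adjusted p = 2.7e-04). Lbp, the plasma protein that carries lipopolysaccharide to Cd14, was higher at 185 CPM beside 27.1 CPM (log2 fold change 2.77 ± 0.36; edgeR adjusted p = 9.3e-04). Lbp was higher than normal in QJSB (235 CPM) and leucogen (166 CPM) too. Cd180, a receptor-like protein of B cells, was lower than normal in all 3 other groups. In leucogen against model Itgb2, the beta chain of leucocyte integrins, was higher (log2 fold change 0.67 ± 0.22; edgeR adjusted p = 0.0461), a call lost with all 12 libraries in one fit (adjusted p = 0.115), with total counts (0.071), with both limma-trend fits (0.0993 and 0.102) and without model 1, model 2 or any 1 leucogen library (adjusted p from 0.0763 to 0.15).

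Endosomal receptors need chaperones, and they are cut by proteases that also work in the endosome. Of 7 chaperone and trafficking genes tested in model against normal, 1 was higher and 1 lower, beside 16.1% and 19.0% of all genes. Cnpy3, a chaperone of Toll-like receptors, was higher (log2 fold change 0.74) and Slc15a3, an endosomal peptide transporter, lower (-0.95). The call of Slc15a3 was lost without any 1 normal library or without model 2 (edgeR adjusted p from 0.0795 to 0.125), and also with total counts (0.0892), with no filter (0.0515) and with both limma-trend fits (0.0723 and 0.0642). Unc93b1 lay at 153 ± 7.8 CPM in normal, 173 ± 26 in model, 199 ± 22.9 in QJSB and 132 ± 12 in leucogen (SD, n = 3 each), and was called in none of the 6 comparisons, with its largest log2 fold change, 0.58 in QJSB against leucogen (edgeR adjusted p = 0.0161), under 1.5-fold. Of the 9 genes that process receptors or nucleic acid ligands in endosomes, 5 were higher and 1 lower in model against normal, beside 16.1% and 19.0% of all genes, and 0 were higher and 6 lower in leucogen against model, beside 11.6% and 11.5%.

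In QJSB against leucogen 8 of these 9 were higher, beside 12.9% of all genes, with a median log2 fold change of 0.90 beside 0.03 over all genes. Promyelocyte markers moved the same way. Of the 8, 7 were higher in model against normal, 5 lower in leucogen against model and 5 higher in QJSB against leucogen (median log2 fold change 0.87). Of all genes, 16.1%, 11.5% and 12.9% were called in these directions. The promyelocyte markers summed to 833 to 1035 CPM in normal, 6841 to 9808 in model, 8546 to 9254 in QJSB and 3710 to 4821 in leucogen, with 0 of them at 0 throughout any group. Of the 12 monocyte markers, 8 were higher, 4 lower, and 2 higher and 1 lower in the same 3 comparisons. The shares of all genes were 16.1%, 11.5%, and 12.9% and 11.7%. The part of these cell types in the endosomal genes was not tested. Ctsl, a cathepsin that cuts Tlr9, was at 22 CPM in normal, 50.8 in model, 56 in QJSB and 16.5 in leucogen (log2 fold change -1.61 ± 0.20 in leucogen against model, SE; edgeR adjusted p = 0.00201). Lgmn, an asparaginyl endopeptidase that also cuts it, fell in leucogen against model by 1.42 on the log2 scale. Rnaset2a and Rnaset2b, near-identical copies of an RNase that makes ligands for RNA sensors, rose in model against normal by a log2 fold change of 1.75 and 1.58, and their counts may be shared between them.

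Downstream of the receptors, 3 of 5 adaptors tested were higher and 1 lower in model against normal, beside 16.1% and 19.0% of all genes. The adaptor Myd88 was higher in model than in normal, at 81.5 beside 37.9 CPM (log2 fold change 1.11 ± 0.24, SE; edgeR adjusted p = 0.00686), as was Ticam2, the adaptor that links Tlr4 to Ticam1 (1.07). Of 17 kinases and ubiquitin ligases, 1 was higher, Ikbke (1.74), a kinase that activates interferon regulatory factors, and 3 were lower, Tab3 (-2.33), a binding partner of the kinase Map3k7, first among them, beside 16.1% and 19.0% of all genes. In leucogen against model 4 of the 17 were higher and 0 lower, beside 11.6% and 11.5%, among them Tab3 (0.70) and Map3k8 (0.64), a kinase of the ERK branch. The transcription factors Relb, an NF-kB subunit (-1.34), and Irf7, which drives interferon genes (-1.28), were lower in model, and Irf5 was lower in leucogen against model (-1.08). The call of Irf7 was lost without any 1 normal library or without model 2 (edgeR adjusted p from 0.0606 to 0.101) and with total counts (0.0565). Those of Tab3 and Map3k8 in leucogen against model were lost without leucogen 3 (adjusted p = 0.0717 and 0.0727), that of Map3k8 also without model 1 (0.57, under 1.5-fold). Both fell under 1.5-fold with total counts, at log2 fold changes of 0.52 for Tab3 and 0.47 for Map3k8, and with the limma-trend fits, at 0.52 and 0.46 for Tab3 and 0.47 and 0.42 for Map3k8.

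Of 11 inhibitors, 2 were lower and 0 higher in model against normal, near the 19.0% and 16.1% of all genes, so nothing is read from the count. They were Il1rl1 (-2.94), a receptor that sequesters adaptors, and Tnfaip3 (-1.57), which removes ubiquitin from signalling proteins. Sigirr, a decoy member of the receptor superfamily, was lower in leucogen than in model (-0.72), a call lost without model 1, model 3 or any 1 leucogen library (edgeR adjusted p from 0.0612 to 0.11) and under the replicate block (0.0696). The genes that the pathway induces were fewer to test, 8 of 17 in model against normal, since Il12b and Ifnb1 were at 0 in all groups and others were low.

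Of those 8, 5 were lower and 0 higher in model, beside 19.0% and 16.1% of all genes, with a median log2 fold change of -1.80. Il6 (1.37 CPM in normal, 0.21 in model) and Ccl3 (1.03 and 0.158 CPM) passed the low-count filter only in comparisons with normal. These genes could there be called only lower, so the 5 of 8 and the median are partly set by the filter. Il1b, a fever-inducing cytokine, was at 32.3 CPM in normal and 1.06 in model (log2 fold change -4.94 ± 0.38, SE; edgeR adjusted p = 4.9e-05), and Il1rn, its natural antagonist, at 24.2 and 3.77 CPM (-2.67). In leucogen against model 3 of 7 were higher and 0 lower, beside 11.6% and 11.5% of all genes, Il1rn (1.42) and Tnf (1.40), the main acute inflammatory cytokine, first among them. The call of Il1rn was lost with log2(FPKM + 1), at 0.54. In QJSB against leucogen 5 of 7 were lower and 0 higher, beside 11.7% and 12.9%. Of the endogenous proteins known as ligands, Vcan rose (2.48) and Hmgb1 fell (-0.71) in model against normal, the latter under 1.5-fold in both limma-trend fits (-0.58 and -0.55). S100a8 (2.34) and S100a9 (2.32), abundant proteins of neutrophils, rose in leucogen against model, calls that were lost without model 3 or leucogen 3 (edgeR adjusted p from 0.0588 to 0.0694) and with no filter on low counts (0.0692 for S100a8 and 0.075 for S100a9). These neutrophil proteins moved with the late neutrophil markers given above, and that cell type's part in the target genes was not tested.

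Some of the 10 genes had close companions in pattern. Over the 12 libraries and 15310 named genes, the log2 CPM of Tlr5 followed that of Nt5e (Pearson r = 0.988) and Gm37248 (r = 0.982) most closely, and Tlr9 that of Gramd4 (r = 0.981) and Zscan20 (r = 0.98). For Tlr13 the nearest were Clec7a (r = 0.952) and Alcam (r = 0.951), for Cd14 Rnf169 (r = 0.937) and Gpi1 (r = 0.922), for Tlr2 Mea1 (r = 0.933) and Rpl37 (r = 0.917), and for Tlr6 Rp9 (r = 0.923) and Knstrn (r = 0.919). Tlr8 was nearest to Rnmt (r = 0.899) and Efcab7 (r = 0.837), Tlr7 to Gm42992 (r = 0.843) and Apol11a (r = 0.828), Tlr4 to Alkbh2 (r = 0.832) and Rin1 (r = 0.741), and Tlr1 to Pcdhgb7 (r = 0.812) and Ssna1 (r = 0.803). The points share library, depth and group, and these are the highest values of a search over all genes, so they are given as a description.

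Among the 10 genes themselves, Tlr13 followed Tlr5 (r = 0.71), Tlr7 (r = 0.71) and Tlr8 (r = 0.69) over the 12 libraries, and ran against Tlr2 (r = -0.72). Tlr2 also ran against Tlr5 (r = -0.69). With group means removed, Tlr13 had r = 0.50 with Tlr5, 0.54 with Tlr7, 0.86 with Tlr8 and -0.41 with Tlr2, while Tlr2 with Tlr5 turned sign, to r = 0.15. Tlr5 and Tlr9 had r = -0.15, and -0.14 with group means removed.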

How the data were processed

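RNA of total femoral marrow cells was sequenced from 12 mice. Libraries were strand-specific and depleted of ribosomal RNA. The authors used Seqtk to filter reads and Hisat2 to map them (HISAT2 and mm10 in the submitters' processing notes). The program that counted reads per gene and its annotation are not given in the sources used here. The deposited table holds whole-number counts per gene and library, not normalized, and the FPKM that the authors computed from fragments, transcript length and total fragments. It has 0 columns of values that were not used. Groups came from the sample labels, and column headings other than Model were assigned by meaning and elimination.

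Counts of the groups compared were fitted with edgeR 4.0.16 in R 4.3.3 (TMM, filterByExpr, robust glmQLFit, glmQLFTest), 3 against 3, with Benjamini-Hochberg adjustment over all genes tested. CPM used TMM library sizes, and log2 CPM a prior count of 2. For single values an exact permutation test (two-sided) was used, which cannot give a p below 0.1 here. The alternatives were DESeq2 1.42.0, a block for the replicate number, other scalings and filters, one fit of all 12 libraries, limma-trend (limma 3.58.1) on log2(FPKM + 0.1) and log2(FPKM + 1), and each library left out. Depth covers counting error only. The fits were tested on simulated counts.

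Whether replicate numbers pair the libraries was checked by correlating deviations from group means. The correlations were 0.451, 0.135 and 0.102 for QJSB with model and 0.174, 0.157 and 0.11 for QJSB with leucogen, each over 0.1, but not in the other comparisons. No label ties the numbers to a shared batch, so the pairing comes from these correlations alone.

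The motif letters were chosen after the windows were seen. The members, the pathway and marker lists and the tests were chosen with earlier results of these data known. Pathway genes named are, per role list, up to 2 called genes with the largest fold in model against normal and up to 2 in leucogen against model with a mean of at least 1 CPM. Ly96, Cd180, Unc93b1, and Tlr11 were named outside this rule. Promoters came from RefSeq (GRCm38.p6), which held 7 of the 10 genes in the table used, and gene models from GENCODE M21.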

Additional observations from a re-analysis of the deposited data

How the results depend on the processing

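Of the 10 genes, 2 were called in model, 4 in QJSB and 2 in leucogen against normal, 0 in QJSB and 2 in leucogen against model, and 3 in QJSB against leucogen. With at least 10 counts in every library, leucogen against model and leucogen against normal each gave 1 call, because Tlr9 was no longer tested. With no filter, leucogen against normal gave 1. Leaving out 1 library gave 2 to 3, 4 to 5, 1 to 3, 0 to 0, 1 to 2 and 2 to 5 calls in the same order, and 0 to 2 at the unadjusted cutoff in QJSB against model. With the replicate number as a block, QJSB against leucogen gave 4 calls, Cd14 being added, and the block changed no other call among the 10 genes in the 6 comparisons. Of the pathway genes named, Sigirr in leucogen against model lost its call with the block. Tlr5 kept its direction but not its fold with log2(FPKM + 1), at -0.54 in model against normal and -0.49 in QJSB against normal, since that pseudocount shrinks a low gene. Directions reversed for Tlr4 in leucogen against normal with the replicate block (0.25), log2(FPKM + 0.1) (0.18) and log2(FPKM + 1) (0.09), and in QJSB against leucogen with the same settings (-0.20, -0.10 and -0.03). Left-out libraries moved Tlr4 between -0.58 and 1.01 in leucogen against normal, between -0.90 and 0.56 in QJSB against leucogen, between -0.67 and 1.83 in model against normal, between -1.71 and 0.65 in QJSB against model and between -1.23 and 0.49 in leucogen against model, and moved Tlr5 in QJSB against model between -0.01 and 0.53. The cause was not tested. Fold changes printed singly were recomputed for 64 gene and comparison pairs, of the 10 genes and of the pathway genes named by rule. This gave 957 values, of which 869 kept direction and call, 63 lost the call, 13 gained it and 12 reversed. Unc93b1 in QJSB against leucogen was not among the 64. Tlr9 rests on 9 to 33 counts in the leucogen libraries. Total counts in place of TMM moved the median over all genes, on the log2 scale, to 0.14 in model against normal, -0.22 in leucogen against model and 0.12 in QJSB against leucogen, beside 0.02, -0.05 and 0.03, and the call of Tlr2 that this scaling added in leucogen against model is smaller relative to that shift.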
